A study of Homo sapiens with 6 samples.

Results

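Cytosolic ribosomal proteins were studied in HMC3 cells, an established human microglial cell line of wild-type genotype, by sequencing poly(A) RNA. The cells had received C1s-CM (3 libraries) or control CM without C1s (3 libraries, titled FLAG), and both groups were grown in the same serum-containing medium. C1s is a protease of the classical complement pathway, CM is not spelled out in the labels, and neither dose nor duration is given in the sources used here. The labels do not tie the libraries of a group to separate cultures, and the spread behind each p-value may thus be technical alone.

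Rows of the deposited count table were taken where the gene symbol began with RPL followed by a digit or P, or with RPS followed by a digit or A, leaving out the RPS6K kinases. The rule found 70 of 5117 rows. They were 35 large subunit genes, 22 small subunit genes, 3 paralogs (RPL36AL, RPL39L and RPS27L), 9 pseudogenes and RPS19BP1, which encodes a protein that binds RPS19 and is not itself a ribosomal protein. Of 79 listed genes for canonical ribosomal proteins, 59 had a row, counting FAU and 1 further gene whose symbols the rule misses. The other 20, among them RPL6, RPL11, RPL14, RPL21, RPL23, RPL24, RPL26, RPL31, RPL34, RPL36A, RPL38, RPS3A, RPS4X, RPS6, RPS10, RPS12, RPS24, RPS25 and RPS27A, were not analysed here.

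The cytosolic ribosome pairs a large subunit, which joins amino acids, with a small subunit, which reads the mRNA. Each ribosomal protein is needed in about equal numbers, and cells match their supply largely at the level of translation, through a pyrimidine tract that opens these mRNAs (the terminal oligopyrimidine or TOP motif). Ribosomal protein mRNAs are abundant, short and copied back into the genome as many processed pseudogenes, so reads of a gene and its copies can be hard to tell apart.

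Adjusted p-values reach at most 0.05 in the authors' deposited table. Its rows had thus already passed a test on these libraries, and a call made again on them is no independent evidence of change. Column totals ran from 12730766 to 14961744 counts and are part of each library, not its depth. Levels are given as CPM, the counts scaled to a common total of the table's rows with TMM factors, and cover those rows alone. Of 16 listed microglia markers 1 had a row, of 10 fibroblast and mesenchymal markers 3 had one (COL1A1, PDGFRB and THY1), and of 9 glioma and astrocyte and 6 neuron markers 0 had one, so the labelled cell type could not be checked here.

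The start of the mRNA is shown first because most subunit genes with a known start carry a tract of pyrimidines there. Windows of 30 bases around annotated start sites (10 before the start, 20 from it), from RefSeq on GRCh38.p14, were found for 46 of the 70 members. Capitals mark a C followed by at least 4 bases that are all C or T. The first 5 windows belong to genes that rose in C1s-CM, RPL22 and RPL4 fell, RPS7 was not called, and RPL36AL and RPS27L are paralogs that fell.
RPS9 (chr19:54200848-54200877, + strand): gcttccgcgcCTCTTTCTCagtgaccgggt
RPSA (chr3:39406710-39406739, + strand): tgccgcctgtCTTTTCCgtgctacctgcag
RPS23 (chr5:82278335-82278364, - strand): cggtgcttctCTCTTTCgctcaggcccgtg
RPL35 (chr9:124861938-124861967, - strand): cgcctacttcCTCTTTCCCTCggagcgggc
RPLP1 (chr15:69452808-69452837, + strand): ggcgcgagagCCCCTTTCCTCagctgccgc
RPL22 (chr1:6199576-6199605, - strand): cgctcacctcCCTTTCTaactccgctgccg
RPL4 (chr15:66504836-66504865, - strand): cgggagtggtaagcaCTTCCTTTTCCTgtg
RPS7 (chr2:3575250-3575279, + strand): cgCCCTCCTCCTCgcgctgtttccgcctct
RPL36AL (chr14:49620607-49620636, - strand): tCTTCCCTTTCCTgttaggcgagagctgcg
RPS27L (chr15:63157458-63157487, - strand): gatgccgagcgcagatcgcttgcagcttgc

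The tract began exactly at an annotated start in 30 of 44 subunit genes with a window (68.2%), 19 of 28 in the large and 11 of 16 in the small subunit. The same held for 5.14% of 27305 genes with a promoter in the RefSeq table, and for 8.57% of 4189 genes of the count table with a window. A tract lay anywhere in the 30-base window in 42 of the 44 subunit genes (95.5%), against 43.4% of all 27305 and 47.3% of the 4189. Windows were searched on the sense strand with every annotated start of a gene. Neither paralog had one at the start, and RPS27L had none in the window. RPS23, which rose, and RPL22, which fell, both had a tract at the start. RPL3, RPL10A, RPS15 and RPS28, whose windows are not printed, rose without one at the start. The windows printed thus do not represent all genes that rose. A match says only that these letters are present.

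Coding sequences of a paralog pair show how far reads can be assigned. RPS27L, at chr15:63125872-63158021 on the - strand, encodes a p53-responsive paralog of RPS27, a zinc-binding protein of the small subunit at chr1:153990755-153992155 on the + strand. The pair is printed from GENCODE 29 on GRCh38, without the stop codon, with capitals at each of the 56 positions where the 252 bases differ (77.8% identical).
RPS27L: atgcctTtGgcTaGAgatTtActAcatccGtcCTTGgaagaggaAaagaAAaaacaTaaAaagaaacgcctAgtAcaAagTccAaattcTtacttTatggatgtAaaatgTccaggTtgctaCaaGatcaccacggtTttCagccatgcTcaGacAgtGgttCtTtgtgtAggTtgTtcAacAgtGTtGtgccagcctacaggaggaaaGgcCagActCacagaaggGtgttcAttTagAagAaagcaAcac
RPS27: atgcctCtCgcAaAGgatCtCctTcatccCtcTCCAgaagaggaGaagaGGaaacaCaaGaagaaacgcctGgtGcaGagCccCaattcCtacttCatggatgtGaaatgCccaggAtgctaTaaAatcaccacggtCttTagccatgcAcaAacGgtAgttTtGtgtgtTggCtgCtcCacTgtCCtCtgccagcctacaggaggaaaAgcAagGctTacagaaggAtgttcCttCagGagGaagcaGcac

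Most ribosomal protein rows were slightly higher in C1s-CM than in control cells. In edgeR's quasi-likelihood test over all 5116 tested rows, with Benjamini-Hochberg adjustment and a threshold of 0.05, 62 of the 70 rows rose, 7 fell (RPL7, RPL17, RPS27L, RPL36AL, RPL22, RPL5 and RPL4) and RPS7 was not called. Of all rows 50.9% rose and 48.5% fell, and 99.4% were called either way. The changes were small: over the 57 subunit genes the median log2 fold change was 0.21, and the range was -0.37 to 0.40, beside a median of 0.08 over all rows. Groups did not overlap for 62 of the 70 members, against 97.2% of all rows.

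The members took 18.4%, 18.7% and 18.6% of the table's counts in the C1s-CM libraries, against 17.5%, 17.5% and 17.1% in the control libraries. The groups did not overlap in this share. It is a share of the rows deposited, not of the cell's mRNA.

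The size and the number of rises depended on how libraries were scaled. With total counts as the only scaling, 36 members rose and 9 fell, beside 26.1% and 49.2% of all rows, and the median over all rows moved from 0.08 under TMM to -0.05. The large subunit median stood 0.09 above that of all rows and the small subunit median 0.17 above it, a distance that a change of scaling cannot alter. RPS7, RPL3, RPL9, RPL10A, RPL19, RPS20, RPS23, RPL27 and RPL39 had fold changes above 0 under TMM and below 0 under total counts. Adjusting each library for GC content and transcript length (offsets, described with the GC content) changed more: 24 members then rose and 16 fell, beside 12.7% and 11.0% of all rows.

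**Figure D1:**
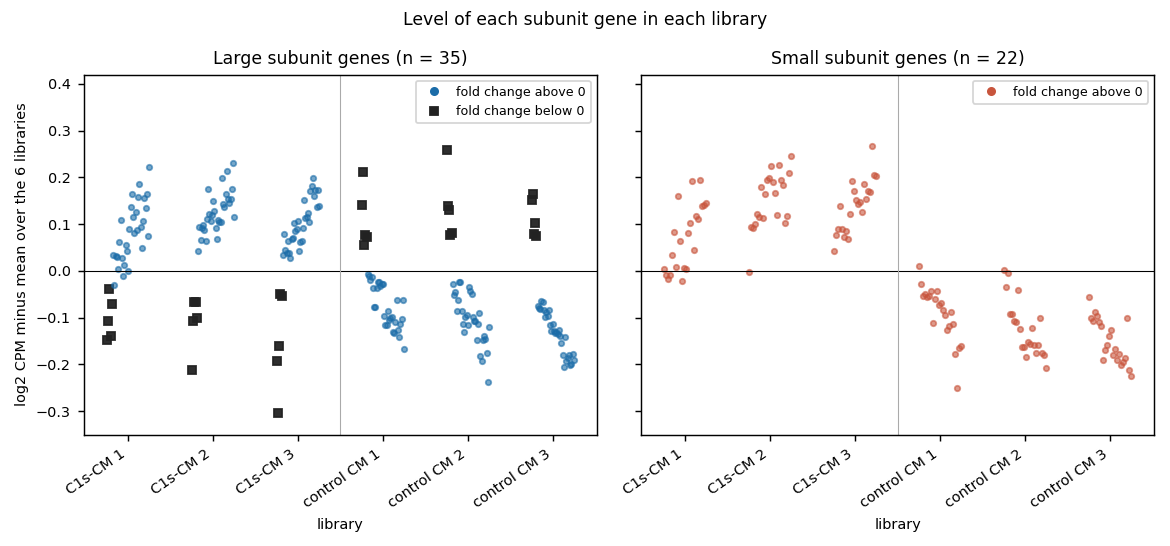
Log2 CPM of each subunit gene in each library, minus its mean over the 6 libraries, for 35 large subunit genes (left) and 22 small subunit genes (right), with C1s-CM libraries left of control CM libraries in each panel and squares for genes with a fold change below 0. Under TMM scaling most circles lie above 0 in C1s-CM and below 0 in control CM, with the 5 large subunit genes that fell on the opposite sides (9 of the 70 rows change the sign of their fold change under total counts).

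In the TMM-scaled fit most small subunit genes rose. Of the 22 genes 21 rose, 0 fell and RPS7 was not called, and the median log2 fold change was 0.25 (range 0.03 to 0.40). Under total counts 15 rose and 1, RPS7, fell, and with offsets for GC content and length 9 rose and 5 fell (median 0.04). With offsets from the shortest principal transcript 6 rose and 2 fell. Summed over the 22 genes, the level was 74080, 77485 and 76659 CPM in the C1s-CM libraries and 65113, 63858 and 62255 CPM in the control libraries. Every C1s-CM library was above every control library.

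RPS9 (chr19:54200742-54249003), which lies at the mRNA entry channel, had 2520, 2644 and 2636 CPM in C1s-CM libraries and 2039, 2019 and 1974 CPM in control libraries. All C1s-CM libraries were higher, a log2 fold change of 0.37 ± 0.03 (SE; edgeR adjusted p = 3.76e-11). With offsets it stood at 0.05 and was not called (edgeR adjusted p = 0.0744). FAU, the precursor of the small subunit protein RPS30, is outside the rule and rose by 0.41 ± 0.03 (edgeR adjusted p = 4.07e-12), with 1083 ± 15.9 CPM in C1s-CM libraries and 816 ± 11.5 CPM in control libraries (SD, n = 3 each).

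RPS15 (chr19:1438358-1440494), near the decoding site, had 4589, 4831 and 4788 CPM in C1s-CM libraries and 3929, 3811 and 3715 CPM in control libraries. RPS19 (chr19:41859918-41872926), the gene most often mutated in Diamond-Blackfan anaemia, had 3320, 3499 and 3403 CPM in C1s-CM libraries and 2879, 2709 and 2663 CPM in control libraries. RPS2 (chr16:1962052-1964860), a neighbour of RPS9 at the mRNA entry channel, had 12630, 11843 and 12402 CPM in C1s-CM libraries and 9746, 10280 and 9688 CPM in control libraries. In all 3 genes the lowest C1s-CM library was above the highest control library, with log2 fold changes of 0.31 ± 0.03 each (edgeR adjusted p of 1.39e-09, 3.20e-09 and 3.26e-09). With offsets RPS15 turned to -0.06 (edgeR adjusted p = 0.0436), RPS19 stayed higher at 0.12 and RPS2 stood at 0.02, not called. RPS19 was assigned a transcript of 2359 bases, above the small subunit median of 677.5, so its value with offsets is uncertain.

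Small subunit genes that also rose were RPSA, a laminin receptor homologue at the mRNA exit site, RPS3, which lines the mRNA entry and also acts in DNA repair, RPS13, RPS14, RPS15A, RPS16, RPS18, RPS20, RPS21, RPS23, RPS26, RPS27, RPS28 and RPS29. Their log2 fold changes ran from 0.11 (RPS23) to 0.31 (RPS28). RPS7, a small subunit protein that also binds the p53 regulator MDM2, had 2068, 2059 and 2124 CPM in C1s-CM libraries and 2078, 2064 and 1986 CPM in control libraries. The groups overlapped, and the log2 fold change of 0.03 ± 0.03 did not pass the threshold (edgeR adjusted p = 0.302). The call of RPS7 depended on the setting. It was lower under total counts (-0.10, edgeR adjusted p = 0.000921) and with offsets (-0.18, edgeR adjusted p = 2.78e-06). With offsets from the longest transcript it was higher (0.36, edgeR adjusted p = 1.14e-10).

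The large subunit held genes of both directions. Of its 35 genes 30 rose and 5 fell, and the median log2 fold change was 0.17 (range -0.37 to 0.32). Under total counts 16 rose and 6 fell, the sixth being RPL3, and with offsets 14 rose and 10 fell (median 0.0083). With offsets from the shortest principal transcript 11 rose and 9 fell. The difference between the subunits in these counts was not tested. The summed level was 113532, 115517 and 113934 CPM in C1s-CM libraries and 101366, 100330 and 97752 CPM in control libraries, with no overlap.

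RPL7 (chr8:73290267-73295789, - strand), a protein of the large subunit body, had the largest fall among the members. It had 1439, 1375 and 1394 CPM in C1s-CM libraries and 1755, 1907 and 1769 CPM in control libraries. Every C1s-CM library was lower, a log2 fold change of -0.37 ± 0.03 (edgeR adjusted p = 2.59e-10). RPL5 (chr1:92831983-92841924), which carries 5S rRNA into the ribosome together with RPL11, had 901, 949 and 959 CPM in C1s-CM libraries and 1047, 1048 and 1065 CPM in control libraries. RPL4 (chr15:66498015-66524532), which lines the exit tunnel, had 2742, 2686 and 2775 CPM in C1s-CM libraries and 3029, 3046 and 3033 CPM in control libraries. Both fell without overlap, with log2 fold changes of -0.17 ± 0.03 and -0.15 ± 0.03 (edgeR adjusted p of 5.86e-06 and 1.16e-05). With offsets RPL7 and RPL5 stayed lower (-0.23 and -0.13), and RPL4, assigned a transcript of 2769 bases, turned to 0.07 (edgeR adjusted p = 0.0170). The values of RPL5 and RPL4 depended on the transcript chosen. With offsets from the longest transcript RPL5 turned to 0.10 and RPL4 stood at 0.0060 (edgeR adjusted p of 0.00313 and 0.875).

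RPL22 (chr1:6185020-6209389), an RNA-binding protein on the subunit's surface, had 120, 118 and 111 CPM in C1s-CM libraries and 128, 135 and 130 CPM in control libraries. RPL17 (chr18:49488453-49492523), a further protein of the exit tunnel, had 19.7, 19.7 and 17.2 CPM in C1s-CM libraries and 24.6, 23.4 and 23.8 CPM in control libraries. Both were lower in every C1s-CM library, with log2 fold changes of -0.18 ± 0.04 and -0.34 ± 0.08 (edgeR adjusted p of 0.000242 and 0.000577). With offsets RPL17 stayed lower at -0.30, and RPL22 turned to 0.14 (edgeR adjusted p = 0.00782).

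Among the genes that rose, RPL35 (chr9:124857880-124861981), at the mouth of the exit tunnel, had 2732, 2712 and 2741 CPM in C1s-CM libraries and 2226, 2229 and 2166 CPM in control libraries. RPL8 (chr8:144789765-144792587), which reaches towards the catalytic centre, had 7093, 7191 and 7292 CPM in C1s-CM libraries and 5978, 5845 and 5624 CPM in control libraries. The groups were apart in both, with log2 fold changes of 0.31 ± 0.03 each (edgeR adjusted p of 3.76e-10 and 1.27e-09). With offsets they stood at -0.05 and -0.02, neither called.

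The stalk that recruits translation factors is built from RPLP0, RPLP1 and RPLP2. RPLP1 (chr15:69452784-69456194) had 3398, 3511 and 3619 CPM in C1s-CM libraries and 2893, 2849 and 2774 CPM in control libraries. It rose by 0.31 ± 0.03 without overlap (edgeR adjusted p = 1.50e-09), RPLP0 by 0.28 ± 0.03 and RPLP2 by 0.23 ± 0.03. With offsets RPLP1 and RPLP0 stayed higher (0.28 and 0.06), and RPLP2 turned to a fall of -0.10 (edgeR adjusted p = 0.00156). RPLP1 was assigned a transcript of 1197 bases, above the large subunit median of 891, so its value with offsets is uncertain.

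Large subunit genes that also rose were RPL3, RPL9 and RPL10A at the low end, RPL7A, RPL10, which joins the subunit late in its assembly, RPL12, RPL13, RPL13A, RPL15, RPL18, RPL19, RPL23A, RPL27, RPL27A, RPL28, RPL29, RPL30, RPL32, RPL35A, RPL36, RPL37, RPL37A, RPL39 and RPL41. Their log2 fold changes ran from 0.07 (RPL3) to 0.32 (RPL13). RPL3, next to the catalytic centre, had 4540 ± 15.9 CPM in C1s-CM libraries and 4317 ± 103 CPM in control libraries (SD, n = 3 each). Its call was lost without control replicate 3, where the log2 fold change was 0.06 (edgeR adjusted p = 0.0586).

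The counts of large subunit genes were 1.53, 1.49 and 1.49 times those of small subunit genes in the C1s-CM libraries, and 1.56, 1.57 and 1.57 times in the control libraries. The ratio was lower in every C1s-CM library. It compares summed rows, without the 20 genes that have none, and does not measure subunits.

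**Figure D2:**
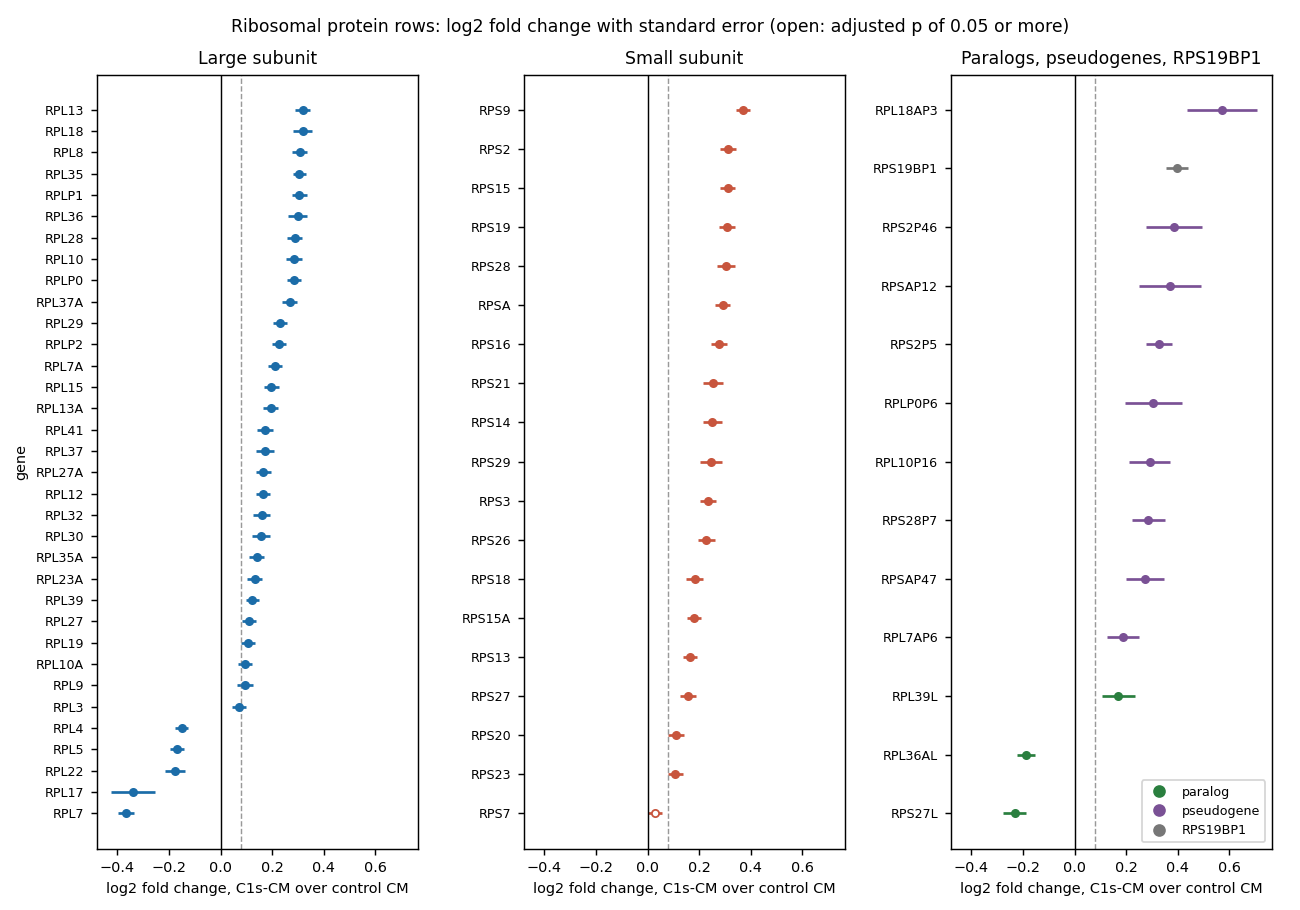
Log2 fold change of C1s-CM over control CM with its standard error for the ribosomal protein rows named in the text, by class, with filled points for an adjusted p under 0.05, a solid line at 0 and a dashed line at the median of all rows. In this TMM-scaled fit the small subunit genes shown lie to the right of 0 and are called, except RPS7, the open point, and 5 of the large subunit genes shown lie to the left. The rows with a smaller fold change, from RPS7 to RPL39, lie left of 0 under total counts.

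Libraries of a group were not equally placed. C1s-CM replicate 2 had the highest level in its group for 34 of the 57 subunit genes, and was highest for 31.5% of all rows. C1s-CM replicate 1 was lowest for 35 of the 57. In the control group, replicate 1 was highest for 39 of the 57, and for 34.7% of all rows, and replicate 3 was lowest for 41. For the lowest library the share over all rows was not computed. RPS29, RPL17, RPS21, RPS14, RPS28 and RPL30 had the widest spread of log2 CPM among subunit genes in C1s-CM, with SDs of 0.12, 0.11, 0.11, 0.10, 0.10 and 0.09 (n = 3).

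In the TMM-scaled fit all 9 pseudogene rows rose, beside 50.9% of all rows, with a median log2 fold change of 0.31 (range 0.19 to 0.57). The groups did not overlap for 4 of the 9, against 97.2% of all rows. All 7 subunit genes that have a pseudogene row (among them RPL7A, RPL10, RPLP0, RPSA, RPS2 and RPS28) rose too, with a median of 0.29. Of the 50 subunit genes without one, 44 rose and 5 fell, with a median of 0.18. With offsets the medians were 0.062 for the genes with a pseudogene row and 0.0062 for those without. Their median GC contents, taken from the shortest principal transcript, were 53.4% and 50.8%, and the difference between these genes was not tested. Under total counts 4 of the 9 pseudogenes rose and 0 fell, beside 26.1% and 49.2% of all rows. With offsets for GC content and length 0 of the 9 were called in edgeR in either direction (median 0.06), beside 23.7% of all rows. An unadjusted p under 0.05 was found for 0 of the 9, beside 1776 of 5112 rows. The offsets from the shortest principal transcript gave the same 2 counts for the 9 pseudogenes.

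RPS2P5 was the pseudogene with by far the most counts, 2812, 2441 and 2349 CPM in C1s-CM libraries and 1920, 2219 and 1922 CPM in control libraries. It rose by 0.33 ± 0.05 without overlap (edgeR adjusted p = 2.31e-06). RPS28P7 (chr11:82689559-82689768) had 131, 120 and 101 CPM in C1s-CM libraries and 99.6, 102 and 87.8 CPM in control libraries. It rose by 0.29 ± 0.06 (edgeR adjusted p = 0.000223), although the lowest C1s-CM library lay below the highest control library.

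Annotated transcripts of the pseudogenes were 96.8% (RPSAP47) to 100% (RPS28P7) identical to the parent. RPS28P7, with 210 bases, is an exact copy, so no read inside it can be told from one of RPS28. RPS2P5 was 98.7% identical to RPS2, and 43.4% of its 75-base windows occur unchanged in the parent. These windows are shorter than the reads of 150 bases, for which the share was not computed. How reads with several matches were counted is not given in the sources used here, so the level of each pseudogene is uncertain.

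The share of a pseudogene in its parent's counts did not separate the groups. RPS2P5 had 22.3%, 20.6% and 18.9% of the counts of RPS2 in C1s-CM libraries, against 19.7%, 21.6% and 19.8% in control libraries. RPS28P7 had 15.5%, 12.6% and 10.9% of those of RPS28 in C1s-CM libraries, against 13.3%, 13.9% and 12.2% in control libraries. Over the 9 pseudogenes the exact permutation p, two-sided, ran from 0.4 to 1, and all were 1 after Benjamini-Hochberg adjustment over 11 ratios. With 3 libraries a group the smallest p such a test allows is 0.1.

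The other 7 pseudogenes had few counts. RPSAP47 (chr8:80558870-80559757) had 62.2, 51.3 and 66.7 CPM in C1s-CM libraries and 45.6, 54.0 and 49.2 CPM in control libraries. RPL7AP6 (chr14:69885340-69886140) had 52.9, 56.8 and 56.6 CPM in C1s-CM libraries and 47.4, 53.7 and 44.9 CPM in control libraries. The groups overlapped in both, and RPL7AP6 lost its call without control replicate 3 (log2 fold change 0.13, edgeR adjusted p = 0.0660).

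RPLP0P6 (chr2:38481851-38482804) had 25.5, 37.1 and 40.5 CPM in C1s-CM libraries and 30.9, 25.3 and 27.3 CPM in control libraries. Its groups overlapped, and its log2 fold change of 0.31 ± 0.11 was 0.48 without C1s-CM replicate 1. The call was lost without C1s-CM replicate 3 (0.17, edgeR adjusted p = 0.124), without control replicate 2 (0.25, edgeR adjusted p = 0.0619) and without control replicate 3 (0.29, edgeR adjusted p = 0.0607). RPS2P46 (chr17:19445970-19446852) also overlapped, with 15.4, 19.3 and 18.2 CPM in C1s-CM libraries and 13.04, 11.9 and 15.5 CPM in control libraries.

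RPL10P16 (chr19:12643275-12643919) had 28.9, 28.6 and 34.6 CPM in C1s-CM libraries and 25.5, 24.6 and 25.0 CPM in control libraries. RPL18AP3 (chr12:104265309-104265836) had 14.0, 15.3 and 19.2 CPM in C1s-CM libraries and 10.4, 8.56 and 13.5 CPM in control libraries. RPSAP12 (chr12:68552995-68553882) had 10.6, 12.7 and 11.2 CPM in C1s-CM libraries and 10.2, 8.56 and 8.08 CPM in control libraries. Each C1s-CM library was above each control library in these 3 genes.

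**Figure D3:**
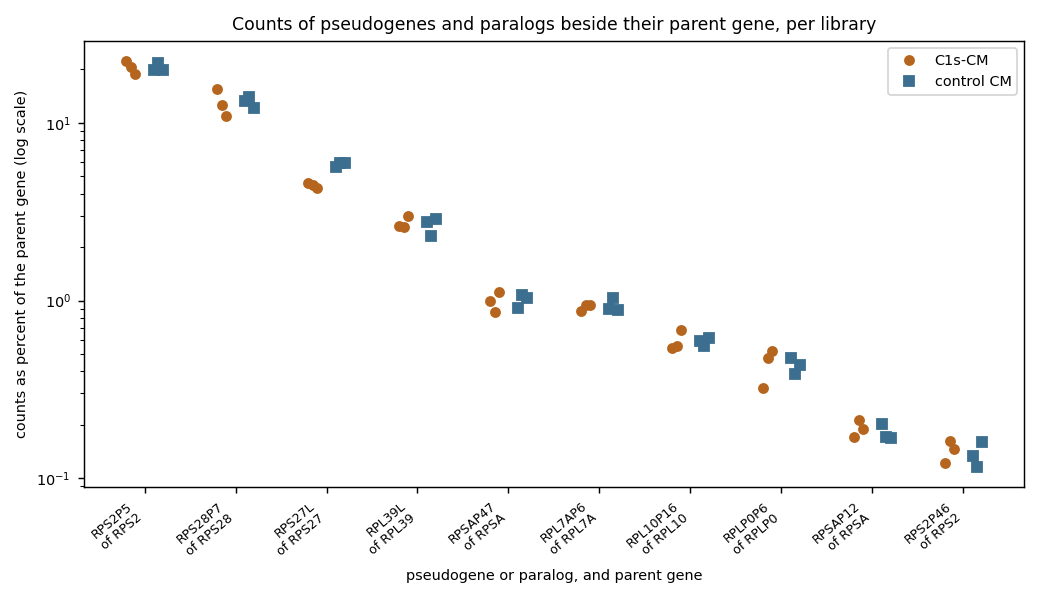
Counts of 8 pseudogenes and 2 paralogs as a percentage of the counts of their parent gene (log scale), with 1 point for each library, C1s-CM (circles) left of control CM (squares). The circles and squares overlap for all but RPS27L, whose 3 C1s-CM libraries (4.28% to 4.61% of RPS27) lie below the 3 control libraries (5.61% to 5.95%).

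RPS27L, unlike its parent, was lower in C1s-CM cells in this fit. It fell to 70.1, 73.7 and 72.1 CPM in C1s-CM libraries, against 82.9, 85.4 and 85.2 CPM in control libraries, a log2 fold change of -0.23 ± 0.05 without overlap (edgeR adjusted p = 5.13e-05). RPS27 rose by 0.16 ± 0.03 (edgeR adjusted p = 7.52e-05), with 1616 ± 84.5 CPM in C1s-CM libraries and 1451 ± 24.2 CPM in control libraries (SD, n = 3 each). Under total counts RPS27 stood at 0.03 (edgeR adjusted p = 0.357), while RPS27L stood at -0.36.

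The ratio of this pair does not depend on how libraries are scaled. RPS27L had 4.61%, 4.50% and 4.28% of the counts of RPS27 in C1s-CM libraries, against 5.61%, 5.95% and 5.92% in control libraries, a log2 difference of -0.39. All C1s-CM libraries were lower, and the exact permutation p of 0.1 is the smallest this design allows (1 after adjustment over 11 ratios). Coding GC content was 42.1% for RPS27L and 50% for RPS27. With offsets for GC content and length, RPS27L changed its sign to 0.14 and RPS27 to -0.11. RPS27L was assigned a transcript of 6434 bases and RPS27 one of 359 bases, for coding sequences of the same length, so the offset of RPS27L is uncertain.

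RPL36AL (chr14:49618519-49620685), a paralog of RPL36A, had 169, 182 and 181 CPM in C1s-CM libraries and 206, 197 and 204 CPM in control libraries. It fell without overlap, with a log2 fold change of -0.19 ± 0.04 (edgeR adjusted p = 2.52e-05), and its parent has no row. RPL39L (chr3:187120948-187180908), a paralog of RPL39 known for its use in the testis, had 53.0, 53.1 and 58.9 CPM in C1s-CM libraries and 50.5, 43.7 and 52.5 CPM in control libraries. It rose by 0.17 ± 0.06 (edgeR adjusted p = 0.0152). Its groups were apart by less than 1 CPM, and the call was lost without C1s-CM replicate 3 (0.12, edgeR adjusted p = 0.107), without control replicate 2 (0.10, edgeR adjusted p = 0.137) and with DESeq2 (adjusted p = 0.0507). RPS19BP1 (chr22:39529093-39532855) had 140, 147 and 148 CPM in C1s-CM libraries and 112, 116 and 102 CPM in control libraries, a rise of 0.40 ± 0.04 without overlap (edgeR adjusted p = 1.58e-08).

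RPL17 had a far lower level than most subunit genes. Per kilobase of transcript it had 28.2 CPM in C1s-CM libraries and 35.7 CPM in control libraries, while RPL35 had 5996 CPM per kilobase in C1s-CM libraries on the same scale. Of the exonic bases of RPL17 68.6% are shared with the readthrough gene RPL17-C18orf32, which lies on the same strand and has no row. The values of RPL17 are therefore uncertain. RPL10 shared 47.5% of its exonic bases with DNASE1L1 and RPL30 44.5% with AP003352.1, both on the opposite strand. The use of strand in counting is not given in the sources used here.

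Fold changes of the subunit genes followed the GC content of their coding sequence. Across the 57 genes Spearman's rho was 0.81, and across 5021 rows with a coding sequence it was 0.82. With the GC content of the shortest principal transcript the values were 0.70 and, across 5112 rows, 0.84. With that of the transcript used for the main offsets they were 0.67 and 0.85. These are descriptions across genes of the same 6 libraries, which are not independent replicates. The 5 large subunit genes that fell had coding GC contents of 43.4% (RPL7), 44.3% (RPL22), 44.3% (RPL5), 46.0% (RPL17) and 48.9% (RPL4). RPS9 stood at 60.5%.

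Taking the transcript's GC content, all 23 subunit genes at 53% or more rose, beside 98.1% of 2329 rows in that range. Between 47% and 53% 19 of 20 rose, beside 62.1% of 391 rows. Below 47% 9 of 14 rose and 5 fell, beside 3.22% and 96.7% of 2392 rows. Transcript length differed too, with a median of 750 bases for the 57 subunit genes and 3049 for all rows. Over all rows fold change fell with length (Spearman's rho -0.52), and within the subunit genes rho was -0.04. Among transcripts below 47% GC and under 1500 bases, 6 of 9 subunit genes rose, beside 26.1% of 134 rows. These shares describe the table and were not tested.

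The offsets for GC content and transcript length were fitted in each library over all rows. With the shortest principal transcript of each gene, 18 of the 70 members rose and 12 fell, beside 12.6% and 11.3% of all rows. The subunit medians were then -0.0014 for the large and 0.02 for the small subunit, beside -0.0050 over all rows. RPL37A (0.58), RPL37 (0.57), RPS23 (0.42), RPL27A (0.32) and RPLP1 (0.32) stood highest in that fit, and RPL17 (-0.35) and RPL7 (-0.19) stood lowest. Of these 5 highest genes, RPL37 was assigned a transcript of 7686 bases, RPL27A one of 4916, RPL37A one of 3647, RPS23 one of 3437 and RPLP1 one of 1197 bases. The first 4 are far above the short mRNAs known for ribosomal proteins, and that of RPLP1 is above the large subunit median of 891 bases. The values of all 5 rows with offsets are uncertain. Offsets also remove any difference between conditions that follows GC content or length, and they were fitted on rows that had already been called.

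**Figure D4:**
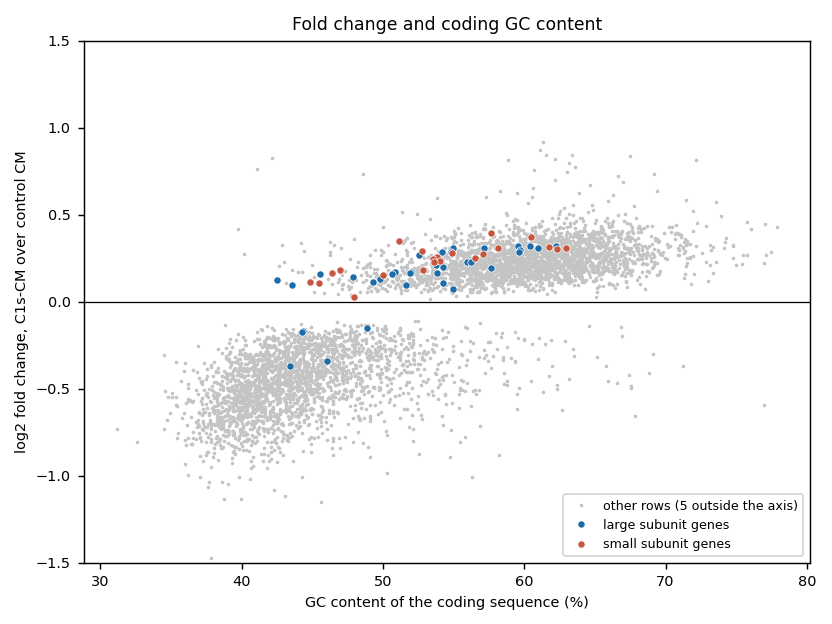
Log2 fold change of C1s-CM over control CM (TMM scaling) against GC content of the coding sequence for large subunit genes, small subunit genes and the other rows of the table (5 lie outside the axis). Subunit genes lie along the upper band, and 5 large subunit genes lie below 0. Subunit genes under 50% GC lie above most rows of like GC content, with transcript length not matched. Few rows lie near 0, since the table holds rows the authors had called.

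Genes that build, carry or control the ribosome are given by list. Their counts under TMM are to be read beside the 50.9% of all rows that rose and the 48.5% that fell. Counts with offsets are to be read beside 12.7% and 11.0% of all rows, and those under total counts beside 26.1% and 49.2%. Of 50 rows for ribosome biogenesis factors 30 rose and 20 fell, and the median log2 fold change was 0.14. These shares lie near those of all rows, and with offsets 8 rose and 1 fell. For each list the genes named are those with the smallest p. EIF6, which keeps new large subunits from joining, rose by 0.39 ± 0.03 (815 ± 27.9 CPM in C1s-CM libraries and 623 ± 28.8 CPM in control libraries, SD, n = 3 each). DDX21, a nucleolar helicase, fell, with a log2 fold change of -0.50 ± 0.04 (140 ± 5.89 CPM in C1s-CM libraries and 198 ± 3.91 CPM in control libraries). With offsets they stood at 0.13 and -0.05.

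Of 8 rows for RNA polymerase I, which makes ribosomal RNA, 4 rose and 4 fell (median -0.10), with ZNRD1 at 0.34 ± 0.06 and TAF1D at -0.39 ± 0.06. Of 3 rows for chaperones of ribosomal proteins 2 rose and 1 fell (median 0.25), with GRWD1 at 0.36 ± 0.04 and AAMP at 0.25 ± 0.03. Of 3 rows for host genes of small nucleolar RNAs 2 rose and 0 fell (median 0.15), with SNHG15 at 0.37 ± 0.09 and SNHG7 at 0.15 ± 0.05. Among these host genes 1 rose and 1 fell under total counts, and 0 rose and 1 fell with offsets. SNHG7 lost its call without control replicate 1 (0.09, edgeR adjusted p = 0.0910).

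Of 13 rows for other mRNAs of translation that carry a TOP motif, 4 rose and 8 fell (median -0.13), which was not tested against all rows. With offsets 4 rose and 2 fell (median 0.01), and a tract lay at the start in all 9 that had a window. EEF1D, a subunit of the elongation factor that reloads eEF1A, rose by 0.31 ± 0.03. NAP1L1, a histone chaperone with a TOP mRNA, fell, with a log2 fold change of -0.30 ± 0.03, and stood at 0.29 with offsets. Of 7 rows for regulators of TOP mRNAs 4 rose and 3 fell (median 0.13), with RPS6KB2, a kinase of ribosomal protein S6, at 0.44 ± 0.04 and EIF4EBP1, a repressor of cap-dependent translation, at 0.29 ± 0.03. With offsets 1 of the 7 rose and 0 fell, and EIF4EBP1 stood at -0.05. Of 10 rows for ribosome rescue and quality control 4 rose and 6 fell (median -0.33), and with offsets 1 rose and 2 fell. The genes named there are MAP3K20, a sensor of stalled ribosomes, at -0.55 ± 0.04, and LTN1, a ubiquitin ligase for stalled chains, at -0.70 ± 0.08.

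Of the 70 members, 63 in the authors' deposited table had a log2 fold change above 0 and 7 below 0 in that table, and all 70 had the sign given here. Over all rows the values here were lower by a median of 0.036 than in the authors' deposited table. RPS7, which passes the threshold there, did not pass it here.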

How the data were processed

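Per the submitters' processing notes, FastQC 0.11.9, Trim Galore 0.6.7, HISAT2 2.2.1 and DESeq2 1.40.2 were used, with build GRCh38. No label names the read counter, its annotation or its use of strand. The authors deposited raw counts per gene as whole numbers, and, per the file headers, their comparison's log2 fold change, raw p-value and adjusted p-value. All 6 columns of counts were used.

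Counts were fitted with edgeR 4.0.16 in R 4.3.3 (TMM, filterByExpr, which removed 1 row, quasi-likelihood test, two-sided, Benjamini-Hochberg adjustment over 5116 rows, threshold 0.05), with group as the only term. DESeq2 1.42.0, other scalings and filters, libraries left out, a replicate block and loess offsets (span 0.3) of log2 CPM on transcript GC content and length were alternatives. The offsets with the shortest principal transcript were added after the data had been seen. A standard error is the log2 fold change divided by the root of the F value. Groups were compared as labelled, and TMM assumes that most rows do not change, which a table of called rows does not ensure. Replicates of a group differed by more than sampling noise (chi-square test), and none was counted as a duplicate.

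The members and the gene lists were chosen with earlier results of these data known. Members are named with their direction, except for 4 that are not reported here by name but are included in every count, median and sum. Values per library are given for members that fell, for paralogs and pseudogenes and for the 5 members of each subunit with the smallest p, and 2 genes with the smallest p stand for each other list. GENCODE 29 gave positions, transcripts and overlaps (4 rows were not matched), RefSeq gave start windows, and edlib 1.3.9.post1 aligned pseudogenes with their parents. The smallest mean count of a member was 142. On simulated counts for 5116 genes the edgeR step recovered 86.2% of changes of 0.3 and 100% of changes of 0.6 (log2), with 3.08% false calls among its calls. The median change of the subunit genes, 0.21, is smaller than those simulated. The real rows had been selected on these libraries and 99.4% were called, so these rates may not hold for them.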

Additional observations from a re-analysis of the deposited data

How the results depend on the processing

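Scaling by DESeq2 size factors, TMM without the ribosomal protein rows, no filter, a minimum mean of 50 counts and the replicate block left the call and direction of all 70 members as reported. DESeq2 left 68, and RPLP0P6 and RPL39L lost their call. The deviations of same-numbered libraries correlated at -0.13, -0.09 and -0.0030, so no shared shift was seen. Such values cannot show whether these libraries were prepared together, and the block says nothing of pairing. With the block 62 members rose and 7 fell, with medians of 0.17 (large subunit) and 0.25 (small subunit). Leaving out each library in turn gave 59 to 62 members higher and 7 lower, medians of 0.15 to 0.19 and of 0.22 to 0.29, and summed levels higher in C1s-CM than in control libraries by 13480 to 15286 CPM (large) and 11589 to 13330 CPM (small).

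With total counts as the only scaling, 36 members and 1336 rows rose, the medians were 0.047 and 0.13, and the summed levels differed by 5220.0 and 6268 CPM, against 14512 and 12333 CPM under TMM. The sign turned for RPL39 (-0.0017), RPL27 (-0.015), RPS20 (-0.015), RPS23 (-0.017), RPL19 (-0.018), RPL10A (-0.030), RPL9 (-0.031), RPL3 (-0.053) and RPS7 (-0.097).

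Offsets for GC content and length gave 24 members higher and 16 lower (649 and 563 of all rows), with medians of 0.0083 and 0.042. Fitted without the ribosomal protein rows they gave 24 and 16 (653 and 544 rows), with medians of 0.0076 and 0.035. With the longest transcript they gave 31 and 9 (703 and 581 rows), with medians of 0.011 and 0.17, and with the shortest principal transcript 18 and 12 (644 and 578 rows), with medians of -0.0014 and 0.018. The replicate block with GC and length offsets gave 22 and 12 (577 and 460 rows), with medians of 0.0083 and 0.042. Among the genes named in the text, the log2 fold change under 1 or more of these 5 settings was above 0 for NAP1L1 (0.12 and 0.29), RPL22 (0.14 and 0.17), RPL4 (0.0060, 0.071, 0.078 and 0.10), RPL5 (0.10), RPS27L (0.13, 0.14 and 0.15) and TAF1D (0.13), and below 0 for EIF4EBP1 (-0.051, -0.050 and -0.048), RPL10A (-0.18, -0.13, -0.12 and -0.10), RPL10P16 (-0.014 and -0.0029), RPL12 (-0.097, -0.087, -0.076 and -0.0096), RPL13A (-0.013, -0.011, -0.0074 and -0.0036), RPL19 (-0.16, -0.15 and -0.14), RPL27 (-0.11, -0.10 and -0.053), RPL28 (-0.032), RPL29 (-0.075, -0.074, -0.070, -0.069 and -0.065), RPL3 (-0.14 and -0.13), RPL30 (-0.067), RPL32 (-0.0014), RPL35 (-0.056, -0.045 and -0.041), RPL36 (-0.064, -0.056, -0.054, -0.053 and -0.032), RPL39 (-0.048, -0.023 and -0.021), RPL39L (-0.074, -0.049, -0.042, -0.039 and -0.029), RPL41 (-0.051 and -0.019), RPL7AP6 (-0.076, -0.055, -0.051, -0.050 and -0.041), RPL8 (-0.020, -0.017 and -0.011), RPL9 (-0.011 and -0.0079), RPLP2 (-0.14, -0.11 and -0.10), RPS13 (-0.088, -0.027 and -0.015), RPS14 (-0.045), RPS15 (-0.065, -0.058 and -0.053), RPS15A (-0.00084), RPS16 (-0.038, -0.027 and -0.021), RPS18 (-0.080, -0.069 and -0.058), RPS21 (-0.084, -0.066, -0.057 and -0.023), RPS27 (-0.13, -0.11 and -0.096), RPS28P7 (-0.13 and -0.12), RPS29 (-0.0044), RPS2P5 (-0.0029), RPS7 (-0.18 and -0.10) and SNHG7 (-0.14, -0.13 and -0.11). Only values with a sign other than that of the TMM fit are listed, and other settings could give the opposite call. RPS7 stood at 0.36 with offsets from the longest transcript (edgeR adjusted p = 1.14e-10). RPL9 stood at 0.18 with those from the shortest principal transcript (edgeR adjusted p = 7.80e-07). The cause of these changes was not tested. The table's rows limit all of this: they were selected on these libraries, and the 20 genes without a row cannot be placed on either side.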
